A study of Mus musculus with 6 samples.

Results

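The mammary epithelial lineage transcription factors are 10 genes, Trp63, Sox9, Sox10, Elf3, Ehf, Grhl2, Klf5, Gata3, Nfib and Tfap2c. They were chosen by name, with earlier results of these data known, among 18193 genes measured in whole mammary glands. They were read by 33 probe sets annotated to one of these symbols alone, of 45037 probe sets tested, and each gene is shown by its probe set with the highest mean over all 6 arrays. The mutant glands came from Cav-3 knockout (Cav-3KO) mice and were set against wild-type (WT) glands, with 3 arrays in each group. All mice were 4-month-old virgin females on the FVB/N background and received no treatment. Caveolin-3 is the coat protein of caveolae in muscle cells, and the study asked about a milk-producing environment in the gland that lacks it. Not given in the sources used here were the allele, the oestrous stage and whether each gland came from a separate mouse, so p-values measure the spread between these arrays only.

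The mammary duct has an inner luminal layer, which senses hormones and makes milk, and an outer basal layer of contractile myoepithelial cells. Transcription factors of several families set up and maintain these layers: the p53 relative p63 in basal cells, GATA3 and AP-2 proteins in luminal cells, SOX9 and SOX10 in progenitors, and grainyhead, Krüppel-like and epithelial ETS factors across epithelia. Nuclear factor I proteins bind beside STAT5 at milk genes. Some members are also used outside the epithelium: Sox10 in Schwann cells, Sox9 in cartilage, Gata3 in T cells, Trp63 in skin and Nfib in connective tissue.

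All values are log2 signals after robust multi-array averaging (RMA), which brings the arrays to a shared distribution. Array medians lay between 5.77 and 5.80. The probe set for Cav3, the targeted gene, read 4.76, 4.83 and 4.72 in Cav-3KO glands, against 4.79, 5.02 and 4.74 in WT glands. These overlap (adjusted p = 0.679 by limma), and it is not known here whether the probes match the deleted sequence, so the probe set does not check the labels. Skeletal muscle genes varied widely between arrays: the mean of 10 such genes was 5.78 to 7.88 in Cav-3KO glands and 6.34 to 9.48 in WT glands.

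Of the 10 factors, 9 were higher in Cav-3KO glands at an adjusted p under 0.05 and 0 were lower, while 7.65% of all genes measured were called higher (limma, Benjamini-Hochberg over all probe sets). In decreasing order of the log2 difference they were Ehf, Tfap2c, Sox10, Sox9, Trp63, Klf5, Grhl2, Gata3 and Nfib, with folds between 5.20 and 1.69. The 10th factor, Elf3, was not called. For the same 9 genes all 3 Cav-3KO arrays lay above all 3 WT arrays, a pattern that 18.5% of all genes showed. Of the 10 factors 7 were called at least 2-fold higher, where 2.36% of all genes were. At a threshold of 0.01, which 2.45% of all genes passed as higher, 8 of the 10 remained called. The median log2 difference of the 10 factors was 1.32, against −0.01 over all genes. The list was chosen with earlier results of these data known, so these shares describe it and do not test it. In whole-gland RNA, more cells of a type and more RNA per cell cannot be told apart. No member lost or gained its call when any 1 array was left out.

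**Figure D1:**
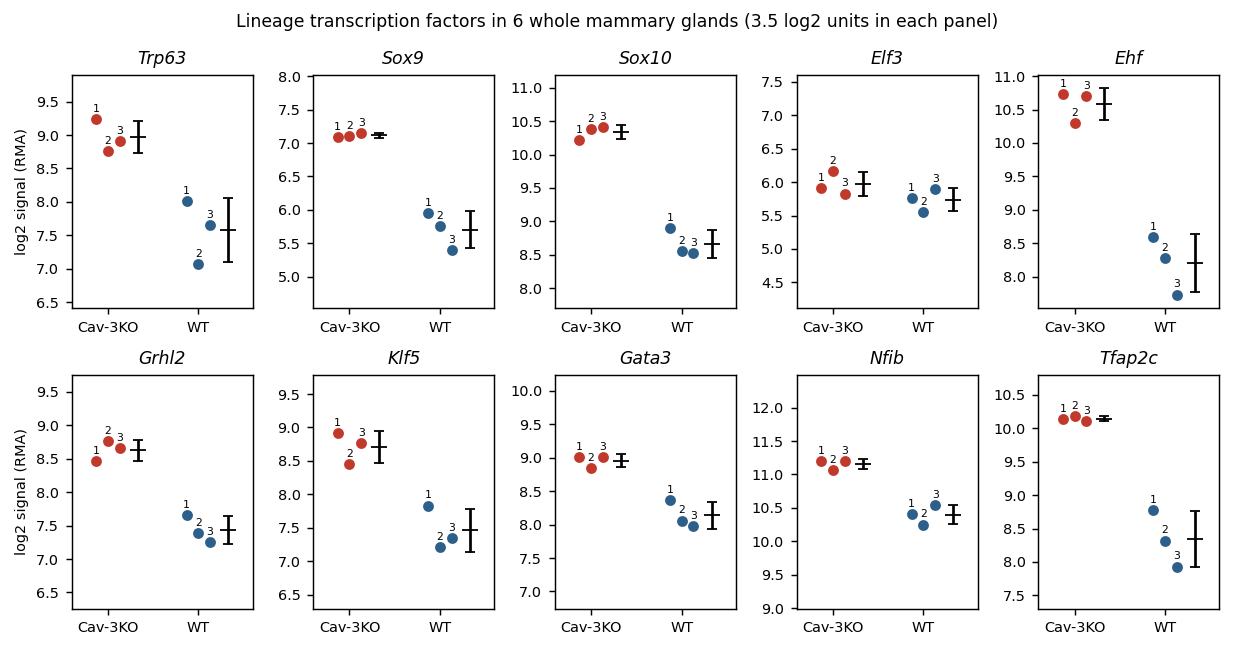
Log2 signal of each factor in the 3 Cav-3KO arrays (red, left) and the 3 WT arrays (blue, right), with replicate numbers above the points and black bars for the mean ± SD (n = 3). Each panel spans the same range of log2 units; the groups are apart in 9 panels and overlap for Elf3.

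The epithelial ETS factors Ehf and Elf3 stood at opposite ends of the list. Ehf, an activator confined to epithelia in most organs, had log2 values of 10.73, 10.30 and 10.70 in Cav-3KO glands, against 8.59, 8.28 and 7.73 in WT glands. The lowest Cav-3KO array lay 1.72 log2 units above the highest WT array, the widest gap among the 10 factors. The log2 difference was 2.38 ± 0.22 (SE), or 5.20-fold (95% confidence interval 3.67 to 7.37, adjusted p = 0.00130 by limma). This placed Ehf at percentile 99.74 of all gene differences. Of its 4 probe sets 3 were called higher, at differences of 2.38 to 2.86. The remaining set, at a mean of 3.59 the dimmest of them, differed by 0.11.

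Elf3, a related ETS factor induced by inflammation and during epithelial differentiation, read 5.91, 6.17 and 5.83 in Cav-3KO glands and 5.76, 5.55 and 5.89 in WT glands. The groups overlapped, with the lowest Cav-3KO array under the highest WT array. Its log2 difference of 0.24 ± 0.13 (SE) had a 95% confidence interval of −0.06 to 0.54, and the adjusted p was 0.286 by limma (0.2 by a two-sided exact permutation test, for which 0.1 is the smallest value that 3 against 3 arrays allow). It rests on 1 probe set of middling signal, at percentile 50.7 of all probe sets. A fold above 1.45 lies outside that interval.

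The change of Ehf was set against that of Elf3 within each array. The log2 ratio of Ehf to Elf3 signal was 4.81, 4.13 and 4.88 in Cav-3KO glands and 2.82, 2.73 and 1.84 in WT glands. The ratios did not overlap, and their means differed by 2.14 (exact permutation p = 0.1, the smallest possible, and 0.16 adjusted over the 8 gene pairs compared in this way, which were chosen with results known). Elf5, the third epithelial ETS gene and a factor needed for alveoli, moved with Ehf: it read 12.08, 12.96 and 12.72 in Cav-3KO glands and 10.67, 10.36 and 9.81 in WT glands. Its log2 difference was 2.31 ± 0.27 (SE, adjusted p = 0.00314 by limma). The ratio of Ehf to Elf5 averaged −2.01 ± 0.65 in Cav-3KO glands and −2.08 ± 0.01 in WT glands (SD, n = 3 each), a difference of 0.07 that did not exceed the spread (exact permutation p = 0.7).

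Both SOX group E members rose. Sox10, which marks basal and progenitor cells of the gland as well as Schwann cells and melanocytes, had log2 values of 10.21, 10.38 and 10.41 in Cav-3KO glands, against 8.90, 8.55 and 8.53 in WT glands. The groups were 1.31 log2 units apart at their nearest arrays. The log2 difference was 1.68 ± 0.12 (SE), or 3.20-fold (adjusted p = 0.000752 by limma), the smallest p among the 10. Its other 2 probe sets were also called higher, at 0.82 and 0.91, and were dimmer than the one shown.

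Sox9, a factor of luminal progenitors and of cartilage, read 7.09, 7.10 and 7.15 in Cav-3KO glands and 5.95, 5.76 and 5.40 in WT glands. The Cav-3KO arrays spanned only 0.07 log2 units while the WT arrays spanned 0.54. The difference was 1.41 ± 0.14 (SE), 2.66-fold (adjusted p = 0.00164 by limma), and all 3 probe sets were called higher. The third group E gene, Sox8, lay near the bottom of the signal range at 3.10 ± 0.20 in Cav-3KO glands and 3.02 ± 0.19 in WT glands (SD, n = 3 each, adjusted p = 0.779 by limma). Sox9 and Sox10 changed by amounts that could not be told apart: the log2 ratio of Sox9 to Sox10 averaged −3.22 ± 0.09 in Cav-3KO glands and −2.95 ± 0.17 in WT glands (SD, n = 3 each, exact permutation p = 0.2).

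Genes that Schwann cells and chondrocytes use were read beside these 2 factors. Of 7 measured Schwann cell markers 0 were called higher and 0 lower by limma, and 1 had an unadjusted p under 0.05. Their mean was 6.54 to 6.72 in the Cav-3KO arrays and 6.90 to 7.15 in the WT arrays. The myelin gene Mbp read 10.15, 9.84 and 9.76 in Cav-3KO glands and 9.70, 10.69 and 10.14 in WT glands, with overlap. S100b, Ngfr and Ncmap differed by −1.45, −0.28 and −0.30 (adjusted p = 0.0559, 0.264 and 0.292 by limma). Leaving out WT replicate 3 brought 1 of the 7 markers past the threshold as lower.

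While 7.65% of all genes were called higher, 1 of 6 cartilage genes was. This was Col9a1, a chain of type IX collagen, at 9.49, 11.57 and 10.23 in Cav-3KO glands against 8.02, 7.97 and 7.68 in WT glands, a log2 difference of 2.54 ± 0.45 (SE, adjusted p = 0.0122 by limma). The other 5 genes of the list were not called. Col2a1, the main cartilage collagen, averaged 5.29 ± 0.04 in Cav-3KO glands and 5.15 ± 0.09 in WT glands (SD, n = 3 each, adjusted p = 0.341). Hapln1, which links aggrecan to hyaluronan, averaged 2.40 ± 0.20 in Cav-3KO glands and 2.19 ± 0.18 in WT glands (adjusted p = 0.364).

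Trp63 encodes p63, which keeps the basal layer. Its log2 values were 9.24, 8.76 and 8.91 in Cav-3KO glands, against 8.01, 7.07 and 7.65 in WT glands. No Cav-3KO array fell within the WT range, although WT replicate 1 and WT replicate 2 were 0.95 apart, the widest WT range of the 10. The difference was 1.39 ± 0.24 (SE), 2.63-fold (95% confidence interval 1.80 to 3.83, adjusted p = 0.0106 by limma). The next brightest of its 4 probe sets differed by 0.91 without passing (adjusted p = 0.0518), and its groups did not overlap. The 2 dim sets, at means of 4.52 and 3.54, differed by −0.01 and 0.10. Averaged over the 4 probe sets, Trp63 differed by 0.60 (adjusted p = 0.0232).

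Of the 5 listed p63 targets, Krt5, Krt14, Itgb4 and the desmosome gene Perp were called higher, and Dst, which encodes a hemidesmosome plakin, was not. Dst read 9.60, 9.67 and 9.47 in Cav-3KO glands and 9.69, 9.90 and 9.81 in WT glands (difference −0.22, adjusted p = 0.2 by limma). For Dst every Cav-3KO array lay below every WT array, as for 19.8% of all genes. Perp differed by 0.99 ± 0.20 (SE, adjusted p = 0.0186) and lost its call in 4 of the 6 fits without 1 array. Both are named after their values were seen. The basal keratin gene Krt5 read 9.29, 9.14 and 9.08 in Cav-3KO glands and 7.97, 7.79 and 7.99 in WT glands, a log2 difference of 1.25 ± 0.10 (SE, adjusted p = 0.000977 by limma). Its partner Krt14 rose by 1.32 ± 0.19, and Itgb4, a hemidesmosome integrin, by 0.57 ± 0.09. Among genes of the basal, myoepithelial layer 8 of 10 were higher and 0 lower, with a median of 0.66, while 7.65% of all genes were higher. The 2 not called, named after their values were seen, were Oxtr at 0.43 ± 0.23 and Lgr5 at −0.55 ± 0.18 (adjusted p = 0.281 and 0.0866 by limma). Lgr5 was called lower without Cav-3KO replicate 2, and Oxtr higher without WT replicate 2. Itga6, the integrin partner of Itgb4, rose by 1.25 ± 0.16, smooth muscle actin Acta2 by 0.75 ± 0.10, the actin-binding calponin Cnn1 by 0.98 ± 0.19 and smooth muscle myosin Myh11 by 0.53 ± 0.11. The count of higher basal genes was 5 without WT replicate 1 and 4 without WT replicate 3, where Cnn1 was lost without WT replicate 2 or 3 and Myh11 without Cav-3KO replicate 3, WT replicate 1 or WT replicate 3. Skin, which also uses p63, was read by 10 epidermal and hair follicle genes, of which 1 was higher, near the 7.65% of all genes. It was Krt15, at 8.66, 8.63 and 8.11 in Cav-3KO glands and 6.83, 5.52 and 6.48 in WT glands (adjusted p = 0.00622). Krt15 is a keratin of basal cells in several epithelia. The cornified-layer genes Ivl and Krt1 differed by −0.16 and −0.09 (adjusted p = 0.429 and 0.649).

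Luminal factors rose by unequal amounts. Tfap2c, which encodes AP-2 gamma, had log2 values of 10.14, 10.18 and 10.11 in Cav-3KO glands, against 8.77, 8.32 and 7.93 in WT glands. The Cav-3KO arrays lay within 0.07 of each other and the WT arrays within 0.84. The difference was 1.80 ± 0.19 (SE), 3.48-fold (adjusted p = 0.00221 by limma). The probe set shown can match several transcripts, and the 2 sets that match Tfap2c alone gave 1.78 and 1.87, both called. Its paralogue Tfap2a, which encodes AP-2 alpha, rose by 1.98 ± 0.18 (SE, adjusted p = 0.00128), from a probe set of the same kind. The 2 changes could not be told apart (difference −0.18, exact permutation p = 0.6), and the sign of that value turned without such probe sets, at 0.46.

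Gata3, which luminal cells need to differentiate, read 9.01, 8.84 and 9.01 in Cav-3KO glands and 8.37, 8.06 and 7.98 in WT glands. The groups were 0.47 log2 units apart at the nearest arrays, the narrowest gap among the 9 called factors. The difference was 0.82 ± 0.12 (SE), 1.76-fold (adjusted p = 0.00710 by limma, 1 probe set). T cells, which also use Gata3, went the other way: of 9 measured T cell genes 0 were higher and 4 lower (8.51% of all genes were called lower), and all 9 had every Cav-3KO array below every WT array, as 19.8% of all genes did. Cd3g, a chain of the T cell receptor complex, averaged 6.27 ± 0.15 in Cav-3KO glands and 7.07 ± 0.39 in WT glands (SD, n = 3 each). Cd2, a T cell adhesion receptor, fell by 0.53 ± 0.13 (SE) and the interleukin-7 receptor gene Il7r by 0.61 ± 0.16. The 4 T cell calls were not stable: the count was 0 without Cav-3KO replicate 1, Cav-3KO replicate 3 or WT replicate 3, 1 without Cav-3KO replicate 2 or WT replicate 1, and 2 without WT replicate 2. Gata2, a relative of Gata3 used in blood and endothelial cells, read 7.29, 7.38 and 7.04 in Cav-3KO glands and 7.72, 8.09 and 7.85 in WT glands, a difference of −0.65 ± 0.13 (SE, adjusted p = 0.0188 by limma). It lost this call without Cav-3KO replicate 3, WT replicate 2 or WT replicate 3, at adjusted p up to 0.0657. The ratio of Gata3 to Gata2 differed between the groups by 1.47 on the log2 scale, without overlap (exact permutation p = 0.1).

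Upstream sequence was at hand for Gata3, which rose, and Elf3, which was not called. Both windows hold the 250 bases before the gene's start as RefSeq gives it in GRCm38.p6. They are shown as those of the only members with sequence at hand. The AP-2 motif GCCNNNGGC, searched on both strands, is set in capitals. It was picked out of the motifs searched after the counts were seen, as it stood in the Gata3 window and not in the Elf3 window. Whether AP-2 proteins act on Gata3 in these glands was not tested. Gata3 lies at chr2:9878601-9878850 on the minus strand and Elf3 at chr1:135258473-135258722 on the minus strand.
Gata3 upstream: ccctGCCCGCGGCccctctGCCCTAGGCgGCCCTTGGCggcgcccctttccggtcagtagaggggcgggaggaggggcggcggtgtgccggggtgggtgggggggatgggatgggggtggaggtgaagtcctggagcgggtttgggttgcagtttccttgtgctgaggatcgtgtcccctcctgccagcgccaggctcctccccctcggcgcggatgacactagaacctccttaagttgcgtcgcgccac
Elf3 upstream: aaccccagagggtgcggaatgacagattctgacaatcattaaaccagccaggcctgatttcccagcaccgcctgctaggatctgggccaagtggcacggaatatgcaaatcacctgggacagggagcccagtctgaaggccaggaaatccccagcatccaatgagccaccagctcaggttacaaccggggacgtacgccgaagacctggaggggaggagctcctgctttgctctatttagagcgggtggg
The Gata3 window held 3 matches and the Elf3 window 0, and 13.7% of 32851 windows of this length held at least 1. The Gata3 window was 70.0% G and C, at percentile 91.2 of all windows, and the Elf3 window 57.2%. The share with the AP-2 motif among windows of similar G and C content was not counted. Of the other letters searched, GATA was in neither window (53.6% of all windows hold it). The ETS core GGAA was in both, with 2 matches for Gata3 and 4 for Elf3 (93.4%), and so were the nuclear factor I letters TTGGC, with 1 match each (41.5%), the one in Gata3 inside the last AP-2 match. CACCC, bound by Krüppel-like factors, had 3 matches for Gata3 and 2 for Elf3 (52.0%). The loose p53 family pattern had 3 matches for Gata3 and 2 for Elf3 (63.5%), and the SOX letters ACAAT 0 and 1 (27.7%). The SOX letters ACAAAG, the grainyhead letters AACCGGTT and AACNGGTT, and the full palindromic nuclear factor I site were in neither (16.5%, 0.116%, 1.79% and 0.0365% of all windows). A match of letters is a description and not a binding site.

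Grhl2 and Klf5 were both called higher. Grhl2, the grainyhead factor that keeps cells epithelial, had log2 values of 8.46, 8.77 and 8.66 in Cav-3KO glands, against 7.66, 7.39 and 7.25 in WT glands. The groups were 0.80 apart. The difference was 1.20 ± 0.13 (SE), 2.29-fold (adjusted p = 0.00259 by limma). Its 3 other probe sets, all below a mean of 5.5, differed by 0.06 to 0.39 and were not called, and the average of its 4 sets differed by 0.47 (adjusted p = 0.0116 by limma). Grhl1, a paralogue expressed in epithelia, read 9.65, 9.25 and 10.18 in Cav-3KO glands and 7.56, 7.34 and 7.04 in WT glands. Its difference of 2.38 ± 0.23 (SE, adjusted p = 0.00160) was the larger one: the ratio of Grhl2 to Grhl1 differed by −1.19 between the groups, without overlap (exact permutation p = 0.1), and by −1.91 with averaged probe sets.

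Klf5, a Krüppel-like factor of dividing epithelial cells, read 8.91, 8.45 and 8.76 in Cav-3KO glands and 7.83, 7.21 and 7.34 in WT glands. The nearest arrays were 0.62 apart. The difference was 1.24 ± 0.18 (SE), 2.37-fold (adjusted p = 0.00659 by limma), and 2 of its 3 probe sets were called. Averaged over the 3 sets it differed by 0.68 (adjusted p = 0.0217). Klf4, a relative linked to cell cycle exit, was at 9.02 ± 0.52 in Cav-3KO glands and 9.41 ± 0.22 in WT glands (SD, n = 3 each, adjusted p = 0.354 by limma). Without Cav-3KO replicate 2 Klf4 was called lower, at a difference of −0.68 (adjusted p = 0.0294). The ratio of Klf5 to Klf4 differed by 1.64 without overlap (exact permutation p = 0.1).

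Nfib, which binds milk gene promoters and is expressed in many cell types, had log2 values of 11.20, 11.07 and 11.20 in Cav-3KO glands, against 10.41, 10.25 and 10.54 in WT glands. The change was the smallest of the called ones, yet it was seen by 6 of 7 probe sets, at 0.58 to 0.76. The difference of the probe set shown was 0.76 ± 0.10 (SE), 1.69-fold (adjusted p = 0.00507 by limma). Nfia, its paralogue, read 10.54, 10.62 and 10.42 in Cav-3KO glands and 10.97, 11.02 and 10.82 in WT glands. It differed by −0.40 ± 0.10 (adjusted p = 0.0353), a call lost without any 1 array other than Cav-3KO replicate 2 (adjusted p up to 0.118). Nfix differed by 0.31 ± 0.09 and did not pass (adjusted p = 0.0608). The ratio of Nfib to Nfia differed by 1.16 without overlap (exact permutation p = 0.1).

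Over all 33 probe sets of the 10 factors, 23 were called higher and 0 lower, where 5.74% of all probe sets were higher, and 32 differed upward. The 10 that were not called had means of 3.11 to 6.21, and 8 of them lay below the median of all probe sets. The 23 called ones had means of 3.33 to 10.78. Among the WT arrays, WT replicate 1 was the highest WT array for 8 of the 10 factors, WT replicate 2 or 3 the lowest for all 10, and the WT range was wider than the Cav-3KO range for 9. Among the Cav-3KO arrays the highest was replicate 1 for 4 factors, replicate 2 for 3 and replicate 3 for 3.

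**Figure D2:**
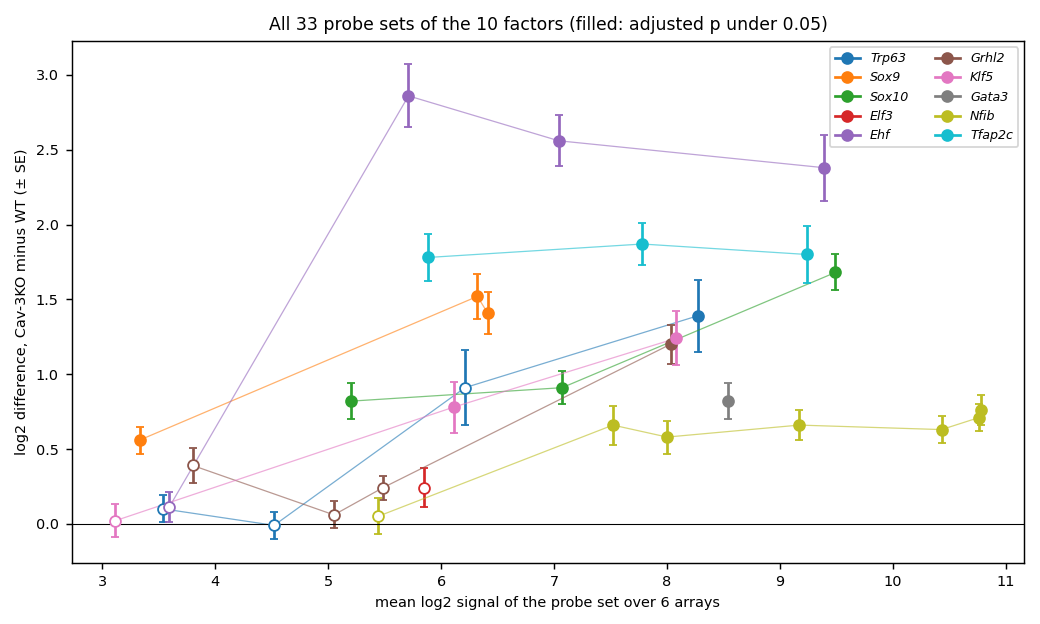
Log2 difference (Cav-3KO minus WT, bars ± SE) of all 33 probe sets of the 10 factors against the mean log2 signal of each probe set over 6 arrays. Lines join the probe sets of a gene, filled points passed an adjusted p of 0.05 and open ones did not; the 10 open points all lie at a mean of 6.21 or below.

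Genes of the epithelium rose beside the factors. Of 16 such genes 14 were higher and 0 lower, at a median log2 difference of 1.38, while 7.65% of all genes were higher. This list holds luminal keratin genes, so it does not weigh both layers equally. The mean level of the 16 genes was 9.94, 9.84 and 9.96 in the Cav-3KO arrays, against 8.95, 8.37 and 8.60 in the WT arrays. The list mean differed by 1.27, and the mean of the 10 factors by 1.29. Ap1m2, a sorting adaptor of polarised cells, rose by 2.19 ± 0.19 (SE), and the splicing regulators Esrp1 and Esrp2 by 2.10 ± 0.20 and 1.58 ± 0.14. The tight junction gene Cldn7 rose by 1.86 ± 0.14, the surface antigen gene Epcam by 1.55 ± 0.13 and the protease inhibitor gene Spint2 by 1.49 ± 0.09. Krt7 and Cldn4, named after their values were seen, were the 2 that did not pass, at −0.24 ± 0.24 and 0.29 ± 0.30 (adjusted p = 0.593 and 0.598). White adipocyte genes were lower in 5 of 6 members, where 8.51% of all genes were lower. Pparg fell by 1.11 ± 0.13, Retn by 0.78 ± 0.10 and Cidec by 0.68 ± 0.11. The count of 5 was 3 without Cav-3KO replicate 3 or WT replicate 1. Brown adipocyte genes differed more: their mean was 6.73 to 6.84 in the Cav-3KO arrays and 7.93 to 9.33 in the WT arrays, and 3 of 6 were lower. Elovl3, a fatty acid elongase gene, fell by 3.42 ± 0.20, the respiratory chain gene Cox8b by 1.06 ± 0.15 and the uncoupling protein gene Ucp1 by 3.36 ± 0.88. The call of Ucp1 was lost without WT replicate 1 or any 1 Cav-3KO array. How far the amount of epithelium or fat plays a part in the factors' changes was not tested.

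**Figure D3:**
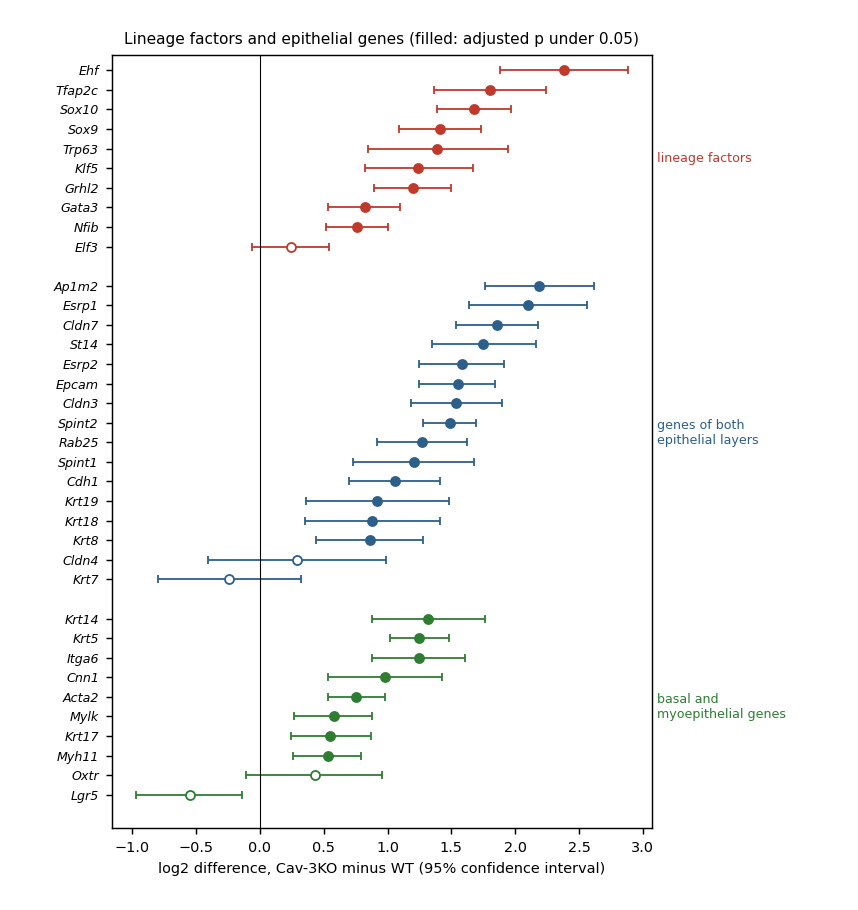
Log2 difference (Cav-3KO minus WT) with its 95% confidence interval for the 10 lineage factors (red), 16 epithelial genes (blue, labelled as genes of both epithelial layers) and 10 basal and myoepithelial genes (green). Filled points passed an adjusted p of 0.05; the factors cover about the same range as the epithelial genes, with a median of 1.32 against 1.38.

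Each factor was then expressed relative to the mean of the 16 epithelial genes on the same array, which subtracts the mean change of those genes. Whether this removes all that a factor and those genes share was not tested. Ehf, Tfap2c and Sox10 stayed higher in every Cav-3KO array than in every WT array. For Ehf the relative log2 values were 0.79, 0.47 and 0.74 in Cav-3KO glands and −0.37, −0.10 and −0.87 in WT glands, a difference of 1.11. For Tfap2c they were 0.20, 0.34 and 0.15 in Cav-3KO glands and −0.18, −0.05 and −0.67 in WT glands, a difference of 0.53. Sox10 had 0.27, 0.55 and 0.45 in Cav-3KO glands and −0.06, 0.17 and −0.08 in WT glands, a difference of 0.41. These 3 genes thus differed upward by more than the epithelial mean did. Some genes of the epithelial list did so too. Before this step Ap1m2 (2.19), Esrp1 (2.10) and Cldn7 (1.86) differed by more than Tfap2c (1.80) and Sox10 (1.68). Only Ehf, at 2.38, lay above the largest difference of that list.

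Elf3, Nfib and Gata3 lay on the other side, with every Cav-3KO array below every WT array on this relative scale. Elf3 was at −4.02, −3.66 and −4.14 in Cav-3KO glands and −3.19, −2.83 and −2.71 in WT glands, a difference of −1.03. Nfib was at 1.26, 1.24 and 1.24 in Cav-3KO glands and 1.46, 1.87 and 1.93 in WT glands, a difference of −0.51. Gata3 averaged −0.96 in Cav-3KO glands and −0.51 in WT glands, a difference of −0.45. On this scale limma called 95.6% of all genes lower and 0.792% higher, so its calls are not used here. The median difference of all genes was −1.28, so a lower relative value is not particular to Elf3, Nfib and Gata3. The share of all genes without overlap on this scale was not counted. Each of the 6 genes without overlap had an exact permutation p of 0.1, the smallest possible. The relative values of Sox9, Trp63, Klf5 and Grhl2 overlapped, with differences of 0.14, 0.12, −0.03 and −0.07 (exact permutation p of 0.5, 0.6, 0.9 and 0.6). Such a ratio shows unequal change and not that a gene was unchanged.

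**Figure D4:**
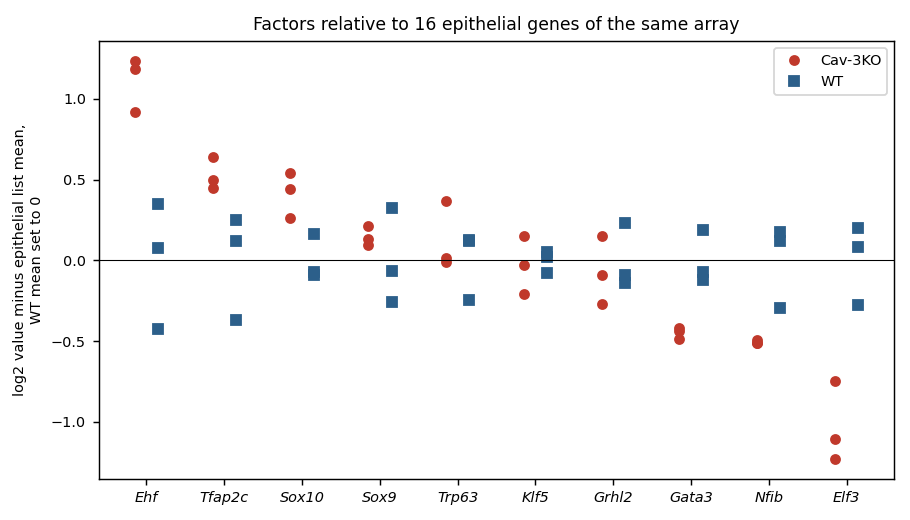
Log2 value of each factor minus the mean of 16 epithelial genes on the same array, with the WT mean of each factor set to 0, for 3 Cav-3KO arrays (red circles, left) and 3 WT arrays (blue squares, right). The groups are apart upward for Ehf, Tfap2c and Sox10, apart downward for Gata3, Nfib and Elf3, and overlap for the other 4.

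Closest relatives of the factors did not move as one. Of 12 measured paralogues 3 were higher, 2 lower and 7 not called, with a median of 0.18. Among all genes 7.65% were higher and 8.51% lower. The 3 were Grhl1, Elf5 and Tfap2a, which kept their calls when any 1 array was left out. The 2 lower ones, Gata2 and Nfia, numbered 1 without Cav-3KO replicate 1 or WT replicate 1 and 0 without Cav-3KO replicate 3, WT replicate 2 or WT replicate 3. Without Cav-3KO replicate 2, 3 paralogues were lower, Klf4 among them, and 4 higher. Among 8 pairs of a factor with a relative, the within-array ratios of the groups did not overlap for 5. Each of these 5 had an exact permutation p of 0.1, the smallest possible, and 0.16 adjusted over the 8 pairs. The share of all gene pairs without overlap was not counted.

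Of 26 other regulators of mammary lineages 6 were higher, 3 lower and 17 not called, with a median of 0.22. Among all genes 7.65% were higher and 8.51% lower. Besides Elf5, Foxc1, a forkhead factor of basal-like cells, rose by 1.77 ± 0.16 (SE, adjusted p = 0.00135 by limma). Id4, a basal inhibitor of helix-loop-helix factors, read 10.03, 9.65 and 10.43 in Cav-3KO glands and 8.45, 7.94 and 8.42 in WT glands, a rise of 1.77 ± 0.21. Sox4, another SOX gene, rose by 1.52 ± 0.17 and Lmo4, a LIM-only cofactor in the epithelium, by 1.41 ± 0.26.

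The 3 that were lower were Hey1, Esr1 and Foxa1, of 26, where 8.51% of all genes were lower. Hey1, a Notch target, read 7.45, 7.76 and 7.31 in Cav-3KO glands and 9.73, 9.56 and 9.11 in WT glands, a fall of 1.96 ± 0.18 (SE, adjusted p = 0.00131). The oestrogen receptor gene Esr1 fell by 0.55 ± 0.10 (adjusted p = 0.0152). Foxa1, its pioneer partner, was at 9.53, 9.18 and 8.40 in Cav-3KO glands and 10.75, 9.90 and 10.38 in WT glands (adjusted p = 0.0310). Esr1 and Foxa1 each lost the call without Cav-3KO replicate 3, WT replicate 1 or WT replicate 3, which left 1 regulator lower. Other hormone-sensing or Notch genes of the list, named after their values were seen, were not called: the progesterone receptor gene Pgr differed by −0.03, Cited1 by −0.27 and Hes1 by 0.02 (adjusted p = 0.968, 0.640 and 0.976 by limma). Esr1 and Foxa1 are known to act with Gata3 in luminal cells, and Gata3 was higher in the same arrays.

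**Figure D5:**
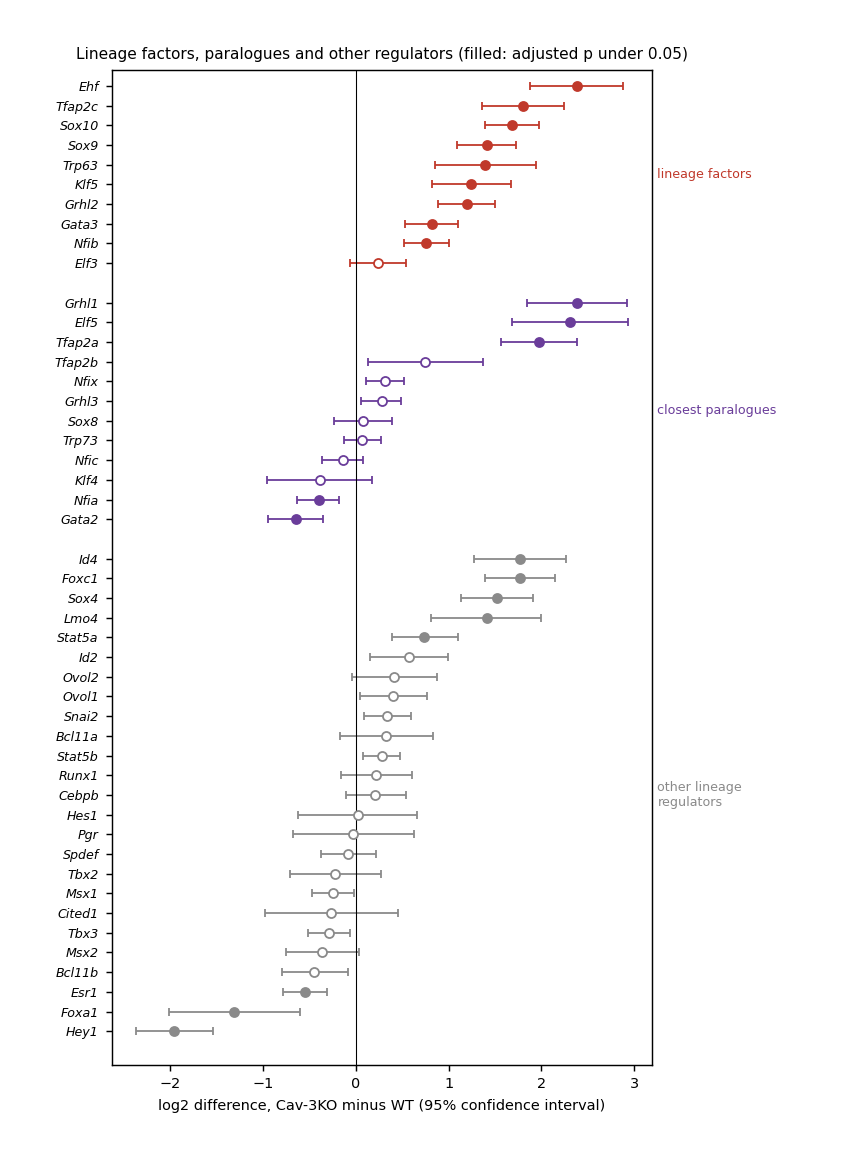
Log2 difference (Cav-3KO minus WT) with its 95% confidence interval for the 10 lineage factors (red), 12 of their paralogues (purple) and the other lineage regulators (grey). Filled points passed an adjusted p of 0.05; 9 of 10 factors, 3 paralogues and 6 of the 26 regulators (Elf5 drawn among the paralogues) are filled on the right side of 0.

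Genes described elsewhere as direct targets of the factors were called higher in 10 of 15 cases and lower in 2, with a median of 1.06. Of all genes 7.65% were higher and 8.51% lower. The milk genes Csn2 and Wap are named after their values were seen. Csn2 was called (3.65 ± 0.77, SE, adjusted p = 0.0226 by limma) but lost the call in 4 fits without 1 array. Wap was not called (3.42 ± 1.24, adjusted p = 0.118), and its groups overlapped. Grainyhead targets were among them: Esrp1 at 2.10 ± 0.20, the small GTPase gene Rab25 at 1.27 ± 0.15 and the E-cadherin gene Cdh1 at 1.06 ± 0.15 (SE, adjusted p = 0.00142, 0.00332 and 0.00634 by limma). The grainyhead target Cldn4 was not called (0.29, adjusted p = 0.598). The 2 lower ones were Foxa1 and Esr1, which Gata3 is known to activate. The counts were 6 higher and 0 lower without Cav-3KO replicate 3 or WT replicate 3, and 9 higher and 0 lower without WT replicate 1. Esrp1, Rab25, Cdh1, Krt5, Krt14 and Itgb4 kept their calls when any 1 array was left out. This list shares Cdh1, Cldn4, Rab25 and Esrp1 with the epithelial list, Krt5 and Krt14 with the basal list, and Foxa1 and Esr1 with the regulators.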

How the data were processed

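Total RNA of each gland was extracted with Trizol, copied into biotin-labelled cRNA from an oligo-dT primer and read on 1 single-channel array, per the labels' protocols. The deposited values are log2 signals, 1 per probe set and array. The submitters' processing notes name RMA as what the authors used, and its version and a genome build were not stated there. Of 45101 probe sets 64 controls were left out, and none was filtered for low signal. Gene names came from the platform annotation, with symbols updated through Entrez identifiers and a RefSeq table of GRCm38.p6; 34945 had 1 symbol, 932 several and 9160 were not listed there. A gene is shown by its probe set with the highest mean.

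Cav-3KO was compared with WT by two-sided lmFit and eBayes models of limma 3.58.1 (R 4.3.3), with no term but genotype, and Benjamini-Hochberg adjustment over 45037 probe sets and a threshold of 0.05. The fit was tested on simulated data. Differences are Cav-3KO minus WT with moderated standard errors. Exact permutation tests over the 6 arrays are two-sided. Array numbers limit the precision. Members, gene lists and gene pairs were chosen with earlier results of these data known. The text names all 10 members, up to 6 genes of the smallest p in each list of paralogues, regulators, targets, epithelial and basal genes, called genes against the list's main direction, and up to 3 genes of each list of other cell types. Klf4, Sox8 and Mbp are named outside this rule, as relatives of a member or a defining marker. Also outside it, and named after their values were seen, are Perp, Dst, Csn2, Wap, Cldn4, Krt7, Oxtr, Lgr5, Pgr, Cited1 and Hes1. The Gata3 and Elf3 windows are shown as those of the members with sequence at hand. Fibroblast, brown adipocyte, skeletal muscle and endothelial lists had 0 higher members, and 1 of 7, 3 of 6, 0 of 10 and 2 of 6 lower. Of all genes 7.65% were higher and 8.51% lower. Listed genes without a probe set of their own here were not analysed. Promoter sequences came from RefSeq; 2 of the 10 members matched the table used. Same-numbered arrays were compared by the correlation of their deviations from the group means.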

Additional observations from a re-analysis of the deposited data

How the results depend on the processing

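The 9 calls of the factors, and the lack of one for Elf3, were kept in all 6 fits that left out 1 array and with quantile normalization again, cyclic loess, median centring, no dim probe sets, a variance prior with trend, array weights, a replicate block, averaged probe sets, no ambiguous probe sets and a skeletal muscle covariate. Averaging probe sets lowered the difference by over 1.5 times for Trp63 (0.60), Grhl2 (0.47) and Klf5 (0.68). At an adjusted p threshold of 0.01 Trp63 (1.39, adjusted p = 0.0106) was lost. Without 1 array the log2 differences ranged over 1.14 to 1.61 for Trp63, 1.26 to 1.53 for Sox9, 1.61 to 1.80 for Sox10, 0.14 to 0.32 for Elf3, 2.15 to 2.57 for Ehf, 1.11 to 1.31 for Grhl2, 1.12 to 1.43 for Klf5, 0.74 to 0.94 for Gata3, 0.68 to 0.83 for Nfib and 1.60 to 2.01 for Tfap2c. Centring each array on the 16 epithelial genes moved all genes by a median of −1.28 and gave every factor the same standard error of 0.24. Its calls (95.6% of all genes lower, 0.792% higher) are therefore listed but not interpreted gene by gene. There Ehf and Tfap2c had 1.11 and 0.53 and stayed called higher. Trp63, Sox9, Sox10, Grhl2, Klf5 and Gata3 had 0.12, 0.14, 0.41, −0.07, −0.03 and −0.45 and lost their calls. Elf3 and Nfib had −1.03 and −0.51 and were called lower. Under this centring 2 factors were higher and 2 lower, 9 paralogues lower, 3 regulators higher and 21 lower, 3 targets higher and 6 lower, 4 epithelial genes higher and 2 lower, and 0 basal genes higher and 6 lower. At the 0.01 threshold 0 paralogues and 1 regulator were lower, 6 targets higher and 0 lower, and 4 basal genes higher. With the prior with trend 1 target was lower, and with the muscle covariate 0 paralogues were lower. Without 1 array, 3 to 4 paralogues were higher and 0 to 3 lower, 5 to 8 regulators higher and 1 to 3 lower, 6 to 10 targets higher and 0 to 2 lower, 11 to 14 epithelial genes higher, and 4 to 7 basal genes higher and 0 to 1 lower. Of the ratios, Ehf to Elf5 lay between −0.26 and 0.39 without 1 array and turned to −0.26 without Cav-3KO replicate 1, −0.28 with averaged probe sets and −0.07 with the muscle covariate, Sox9 to Sox10 to 0.03 with averaged probe sets, Grhl2 to Grhl1 moved to −1.91 with averaged probe sets, and Tfap2c to Tfap2a turned to 0.58 with averaged and 0.46 without ambiguous probe sets. The cause was not tested.

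Same-numbered arrays had deviation correlations of −0.05, 0.19 and −0.02, so the numbers were not taken to pair the samples. With the replicate block 9 factors stayed higher and 0 lower, 4 paralogues and 11 targets were higher, and each of the 10 factors kept its call or lack of one.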
